A study of Danaus plexippus with 36 samples.

Results

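In antennae of the monarch butterfly (Danaus plexippus), 87 genes were both abundant and close to absent from legs and proboscis. They were chosen on CPM, the number of reads counted for a gene per 1000000 counted reads of its library. A gene was kept when its mean antennal CPM, plus 0.1, was at least 30 and was at least 16 times both the leg mean and the proboscis mean, each plus 0.1. The 87 genes were 0.575% of the 15130 gene models in the count table, and 1.89% of the 4599 genes with an antennal mean of at least 30 CPM. All 87 passed the filter on low counts that preceded the tests. The difference between antennae and each other appendage is what chose these genes, so it is given below as a description, and the test calls printed for it serve only as background.

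The study sequenced messenger RNA from the antennae, legs and proboscis of field-caught adult monarchs, to look for genes that differ between these chemosensory appendages and between the sexes. Female animals were gravid, and the labels give no treatment or genotype for either sex. There were 6 females (animals 1, 3, 11, 18, 25 and 27) and 6 males (animals 2, 12, 13, 15, 16 and 20), in what the labels call batch 1 and batch 2, each with 3 females and 3 males. The antennae of male 2 were not analysed here, which left 11 antennal, 12 leg and 12 proboscis libraries.

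Antennae are the main olfactory organ of a butterfly. Their hair-like sensilla house olfactory neurons that carry odorant receptors, and support cells that secrete odorant-binding proteins into the fluid around the neurons. Legs and proboscis carry contact chemosensilla: female butterflies taste leaves with their legs before laying eggs, and both sexes taste nectar with legs and proboscis. None of the 15130 identifiers, which begin with DPOGS, matched the gene table used here, and the count table holds no names. The genes are therefore given by identifier, without a function, protein or genome position, and the tissue labels could not be checked against marker genes.

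The total of counted reads, in units of 1000000, ran between 0.622 and 24.7 in antennae (median 5.50), between 11.7 and 116.6 in legs (median 25.4) and between 1.92 and 53.7 in proboscis (median 13.2). The shallowest library was the antennae of female 11. The antennae of male 20 stood apart in these genes: 65 of the 87 had a count there, against 77 in female 11 and 84 to 87 in the other 9 antennal libraries. In male 20, 64 genes had at least 10 counts, against 56 in female 11. The proboscis of male 20 was also low in these genes, at a depth of 10.5 in the same units. There 34 genes had a count and 28 at least 10, against a proboscis median of 69.5 with a count. The proboscis of male 13, less deep at 9.47, had 69 with a count. Only the proboscis of female 11, the shallowest at 1.92, had fewer than male 20: 28 with a count and 9 with at least 10. The cause was not tested. Neither antennal library was left out, and the spread and co-variation of the genes are also given without them.

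Together the 87 genes took 5.43% ± 3.91 of all counts in antennae (SD, n = 11), while in legs they took 0.0328% ± 0.0234 and in proboscis 0.0524% ± 0.0343 (SD, n = 12 each). Per library the antennal share was lowest at 0.954% in male 20, had a median of 4.73%, and was highest at 11.1% in female 1. The leg libraries lay between 0.00855% and 0.0831%, with a median of 0.0271%. The proboscis libraries lay between 0.0155% and 0.128%, with a median of 0.0460%. No leg or proboscis library came near the lowest antennal one.

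The antennal libraries themselves fell wide apart. Females 1, 25 and 3 gave 11.1%, 10.1% and 9.87% of their counts to these genes, and male 16 gave 8.72%. Males 12 and 13 and female 27 lay between, at 5.54%, 4.73% and 4.54%. Female 18, female 11, male 15 and male 20 gave only 1.44%, 1.44%, 1.42% and 0.954%. Low libraries occurred in both sexes and both batches, and fewer cells of a type cannot be told apart from less RNA per cell in such whole-appendage samples. The share had a Pearson r of 0.496 and a Spearman rho of 0.473 with the logarithm of library depth over the 11 libraries, and r was 0.109 without the 2 libraries farthest from the median depth.

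**Figure D1:**
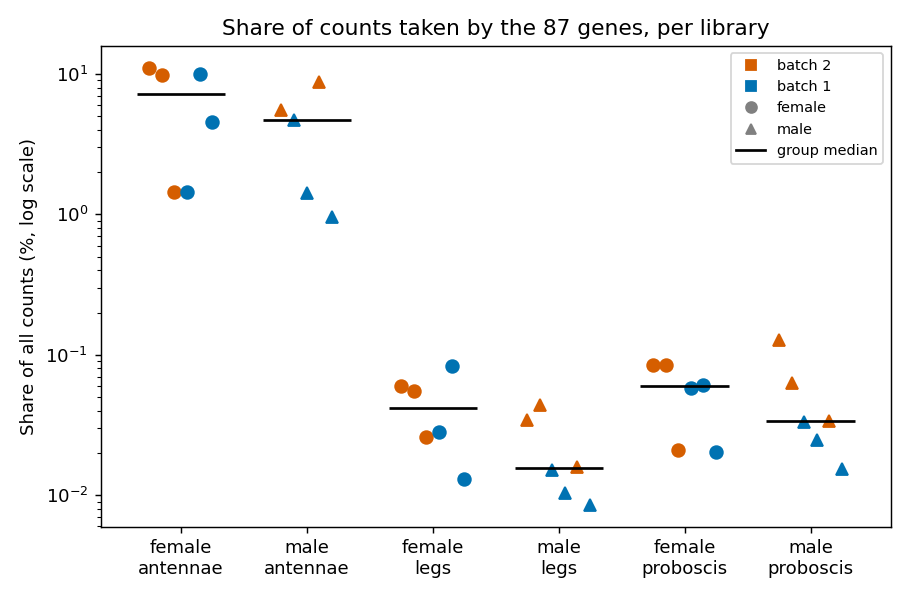
Percent of all counts that fell on the 87 genes in each library (log axis), by sex and tissue; circles are females, triangles males, colour marks the batch and the bar the group median. All 11 antennal libraries lie between 0.954% and 11.1%, above every leg library (at most 0.0831%) and every proboscis library (at most 0.128%).

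Mean antennal levels ran between 30.5 and 7819 CPM, with a median of 130 CPM: 10 genes averaged at least 1000 CPM, 38 between 100 and 1000, and 39 under 100. CPM is not divided by gene length, so these ranks are of reads and not of transcripts. The 10 genes with the highest mean antennal CPM held 66.9% ± 16.4 of the antennal counts of all 87 (SD, n = 11), with a range of 20.5% to 78.9%. A few genes thus set most of the summed antennal level in most libraries.

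DPOGS208400, which had the highest antennal mean, had 52.9 CPM in its lowest antennal library (male 20), a median of 7677 and 20914 in its highest (female 25), for a mean of 7819 ± 6528 (SD, n = 11). In legs it ranged between 0 and 5.36 CPM with a median of 0.675, and averaged 1.46 ± 1.89 (SD, n = 12). In proboscis it ranged between 0 and 4.44 CPM with a median of 0.347, and averaged 0.999 ± 1.41 (SD, n = 12). Its lowest antennal library was above all 24 leg and proboscis libraries, and its antennal mean was 4999 times the leg mean and 7112 times the proboscis mean with the constant added.

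DPOGS210500 had 426 CPM in its lowest antennal library, a median of 6015 and 16498 in its highest, for a mean of 7384 ± 6242 (SD, n = 11). Legs had between 0.0682 and 4.59 CPM with a median of 0.269. Proboscis had between 0 and 19.6 CPM with a median of 2.23. The groups again did not overlap, but the proboscis mean of 4.605 ± 6.53 left a smaller ratio (1570) than the leg mean of 0.926 ± 1.34 (7197).

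Not all abundant genes were this close to absent elsewhere. DPOGS201794, chosen for mention after its values were seen, had 85.0 to 18829 CPM in antennae with a median of 3338. In legs it had 0.847 to 522 CPM with a median of 56.9, and in proboscis 1.47 to 438 with a median of 54.1. It passed the rule at 50.6 and 51.8 times, yet its highest leg and proboscis libraries were above its lowest antennal library, so the groups overlapped. It was the gene with the most reads of the 87 in 8 of 12 leg and 5 of 12 proboscis libraries.

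For each gene the smaller of its ratios to legs and to proboscis had a median of 63.3 across the 87. It reached 32 in 60 genes, 100 in 33 and 1000 in 8. The genes just inside the fold limit had ratios of 16.2, 16.5 and 18.96, and those just outside had 15.5, 15.3 and 15.2. At the level limit, the genes just inside averaged 30.5, 30.9 and 32.3 CPM in antennae, and those just outside 29.8, 29.6 and 29.1. The limits thus fall in a continuous range of genes.

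Residual levels outside antennae were low but seldom nil. Mean leg levels were between 0.00676 and 126 CPM with a median of 0.694, and 50 genes averaged under 1 CPM. Mean proboscis levels were between 0 and 124 CPM with a median of 1.49, and 37 genes averaged under 1 CPM. Every gene had a count in some leg library, and 40 had one in all 12. In proboscis 16 had a count in all 12 libraries, and DPOGS200224, named here because it was the single exception, had none in any. At the level that 3 counts over all proboscis libraries would give, 0.0126 CPM, its antennal mean of 116 CPM was at least 9148-fold higher, with counting error alone considered. Leg and proboscis levels were also uneven: 13 genes had most of their CPM summed over leg libraries in a single library, and 19 had most of their summed proboscis CPM in one. By raw counts, which also follow library depth, the numbers were 26 and 26.

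Every antennal library was above every leg library for 41 of the 87 genes, which held for 5.3% of all 11804 genes tested. Every antennal library was above every proboscis library for 36 of them, against 1.25% of all genes, and 34 genes met both. In the fit of all 35 libraries with edgeR's quasi-likelihood test, all 87 were called higher in antennae than in legs, beside 25.2% of all genes, and than in proboscis, beside 11.4%. Since the rule used these contrasts, nothing is read from those counts.

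**Figure D2:**
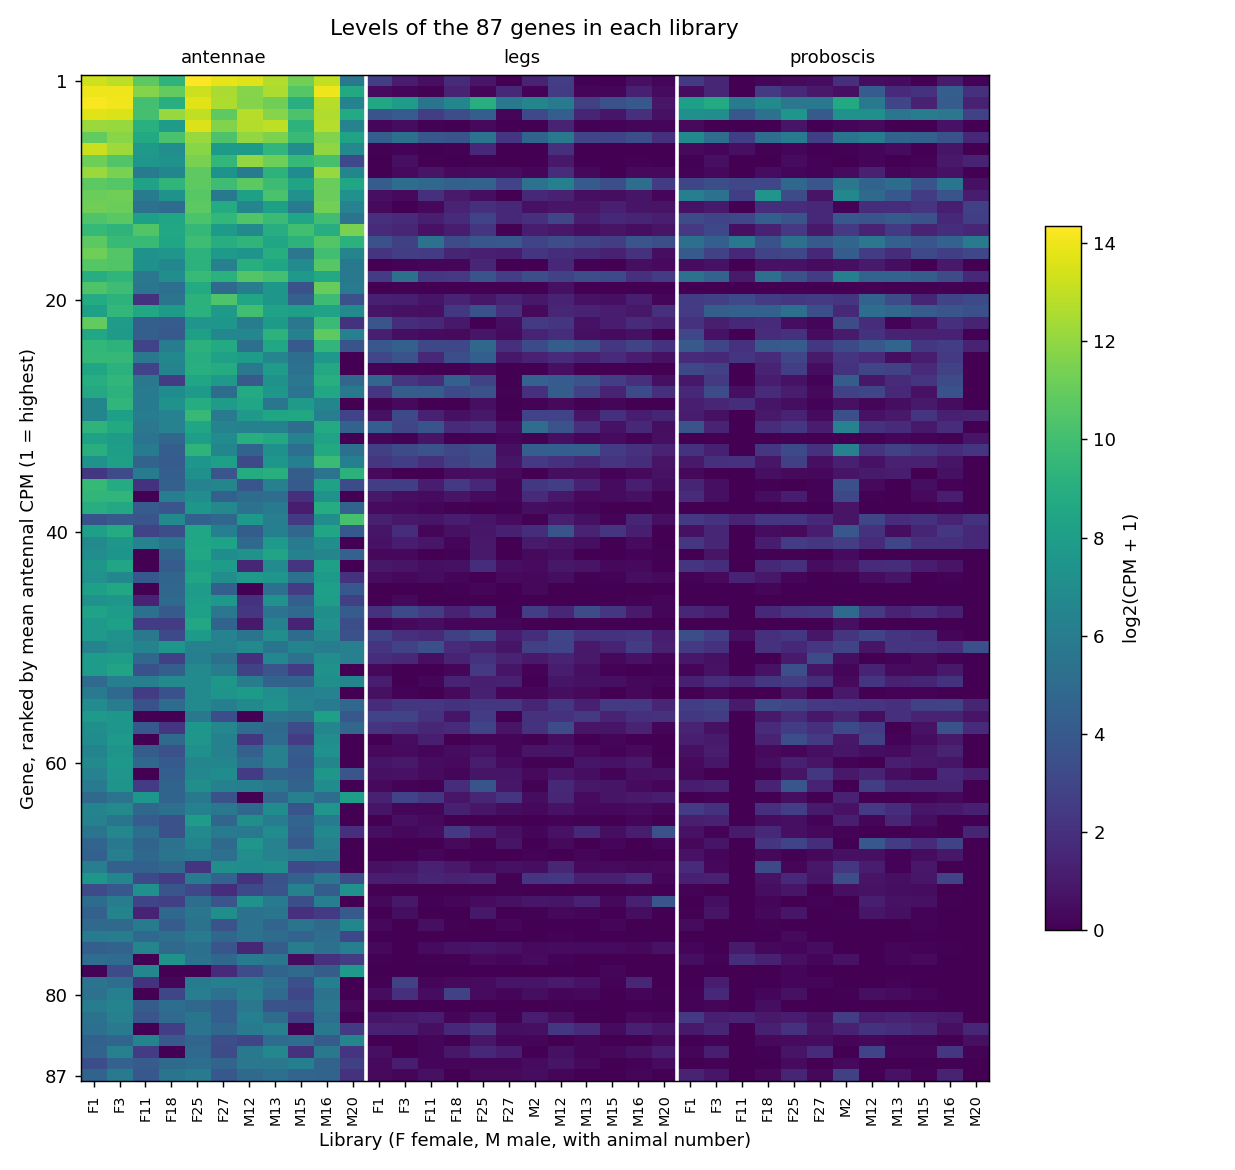
Level of each of the 87 genes (rows, ranked by mean antennal CPM) in each of the 35 libraries (columns, grouped by tissue), as log2(CPM + 1). The antennal block is bright but uneven, with dark columns such as male 20, where 65 of the 87 genes had a count, and the leg and proboscis blocks are dark except in a few rows.

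The same levels can be set out within single animals. Their means chose the genes, so the values below are a description and no further support for the contrast. The summed leg level of the 87 genes was 0.183% to 1.96% of the summed antennal level of the same animal (median 0.731%, 11 animals), and the summed proboscis level was 0.388% to 4.03% (median 0.851%). At least 16-fold more was found in antennae than in legs for 52 to 85 of the genes in an animal (median 81), and than in proboscis for 46 to 85 (median 77). Both minima were in male 20. In 5 of 11 animals all 87 genes were higher in antennae than in legs, and in 5 of 11 likewise than in proboscis.

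Animals with a high antennal level also tended to have more of these reads in their other appendages. The summed leg level followed the summed antennal level over 11 animals with r = 0.650 and rho = 0.827, and r was 0.408 without the 2 farthest animals. For the proboscis r was 0.680 and rho 0.836, and r was 0.495 without the 2 farthest. With DPOGS201794 left out of the sums, r was 0.523 for legs and 0.625 for proboscis, and 0.506 and 0.349 without the 2 farthest animals. The 3 libraries of an animal share its dissection and, by label, its batch, and these values are given as a description.

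**Figure D3:**
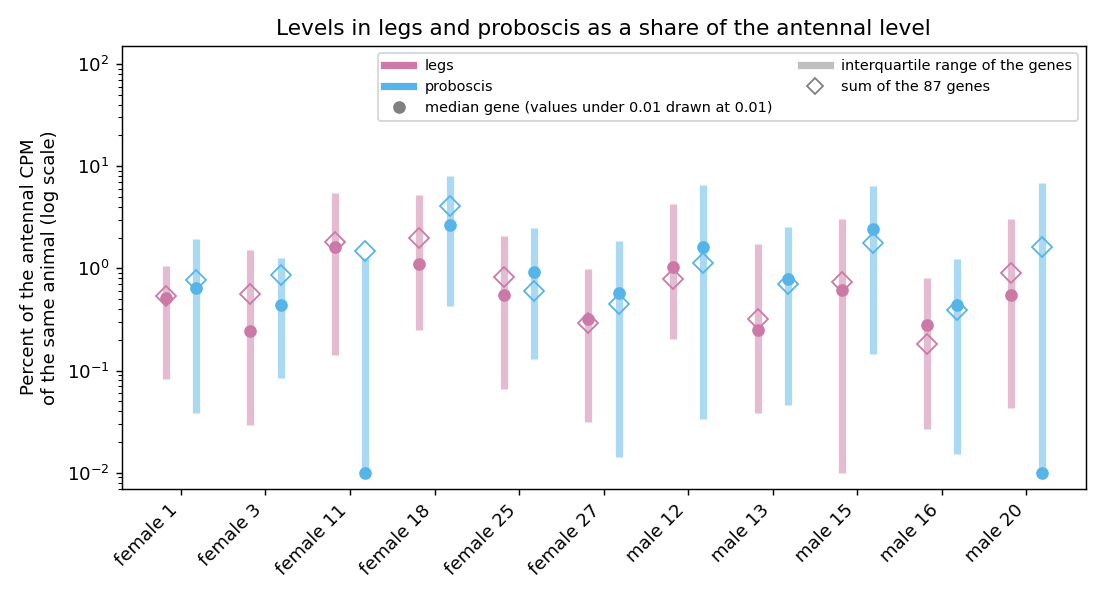
Leg and proboscis CPM as a percent of the antennal CPM of the same animal (log axis), for 11 animals; points are the median gene, bars the interquartile range of the genes and diamonds the sum of the 87 genes. The diamonds lie between 0.183% and 1.96% for legs and between 0.388% and 4.03% for proboscis.

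The rule was then applied to the animals of a single batch, and the genes it gave were tested in the animals of the other. Values of the tested animals did not pick these genes. The rule itself, however, was chosen with earlier results of these data known, so the tested animals were not wholly unused. Applied to batch 1 alone it gave 85 genes. In batch 2 alone, edgeR's quasi-likelihood test called 83 of these 85 higher in antennae than in legs, against 19.6% of all genes, with a median fitted log2 fold change of 7.10 beside −0.38 over all genes. It called 84 of 85 higher in antennae than in proboscis, against 4.33% of all genes, with a median of 6.34 beside −0.39. Within that limit, nearly all genes chosen in batch 1 were also called higher in antennae in batch 2, where 5 of 6 animals had an antennal library.

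Applied to batch 2 alone, which lacks an antennal library for male 2, the rule gave 110 genes. In batch 1 alone, 99 of these 110 were called higher in antennae than in legs, against 17.6% of all genes, and 99 higher than in proboscis, against 7.35%. The median fitted log2 fold changes were 5.37 and 5.30, beside −0.02 over all genes in both comparisons. The 2 lists shared 70 genes, which is 63.6% of the 110 and 82.4% of the 85. All 70 were among the 87, but the 87 came from the same libraries pooled. That overlap was therefore nearly fixed by the rule, and nothing is read from it.

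One gene of the 110 was called in the other direction. DPOGS210914, named after its values were seen and not among the 87, averaged 5.25 ± 9.54 CPM in antennae of batch 1 (SD, n = 6) and 36.03 ± 51.4 CPM in legs of batch 1 (SD, n = 6), with a fitted log2 fold change of −4.17 ± 1.43 (SE) and an adjusted p of 0.0296 (edgeR, Benjamini-Hochberg). With 1 animal of batch 1 left out, it was called in 2 of 6 fits and missed the threshold without male 13, male 15, female 18 or female 25 (adjusted p up to 0.330, log2 fold change between −5.74 and −1.80). In batch 2 its antennal mean of 43.0 CPM came from female 1, at 208 CPM, while the antennal median there was 1.61 CPM. Its choice in batch 2 thus rested on a single library.

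Applied to female libraries alone the rule gave 90 genes, and to male libraries alone 92. These lists shared 67 genes, which is 74.4% of the female list and 72.8% of the male list.

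Levels of the 87 genes varied more between antennal libraries than those of other abundant genes. The SD of log2(CPM + 1) over the 11 antennal libraries had a median of 2.13 (range 0.543 to 3.48), against 0.652 for the other 4512 genes with an antennal mean of at least 30 CPM. Without male 20 the medians were 1.71 and 0.65, and without female 11 they were 2.07 and 0.64. Leaving out these 2 libraries was chosen after seeing the data. The highest library was over 10 times the lowest for 80 of the 87 genes and over 100 times for 51, counting genes whose lowest library was at 0. Only 20 of the genes reached 30 CPM in every antennal library, and 72 had a median of at least 30 CPM. For 3 genes most of the CPM summed over antennal libraries came from 1 library, and by raw counts this held for 26.

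Most of the genes varied together. Over 11 antennal libraries the pairwise Pearson r of log2(CPM + 1) had a median of 0.562 across the 3741 pairs of the 87 genes, with quartiles of 0.133 and 0.752, against a median of 0.0740 for pairs of other abundant genes. Each gene's r with the summed level of the other 86 had a median of 0.787, and it was over 0.5 for 69 genes and under 0 for 10. Without male 20 the median pairwise r was 0.483, the median r with the others 0.767, and 66 genes were over 0.5. Without female 11 these values were 0.547, 0.787 and 69, and in each of these cases 10 genes were under 0. These correlations are descriptions: the points share their libraries and depth.

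The 10 genes with an r below 0 were mostly high in male 20, whose antennal library was low in the rest. Several, but not all, were also high in female 11 and male 15, which had low shares too. DPOGS213676 ranged between 114 and 2849 CPM in antennae with a median of 652, was highest in male 20, and was the gene with the most reads of the 87 there. It had 1393 CPM in female 11 and 1014 in male 15. DPOGS211412 had the most negative r with the other genes, −0.73. It had 166 CPM in male 20, 148 in female 11 and 76.9 in male 15, and at most 17.8 in any other antennal library. The lowest library, ties included, was male 20 for 42 of the 87 genes, female 11 for 19 and male 12 for 12. Male 20 was the highest library for 8 genes, and all 8 were among the 10 with an r below 0. DPOGS206088 was the most even of all, at 46.6 to 195 CPM with a median of 82.9. These 3 identifiers were chosen after their values were seen.

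**Figure D4:**
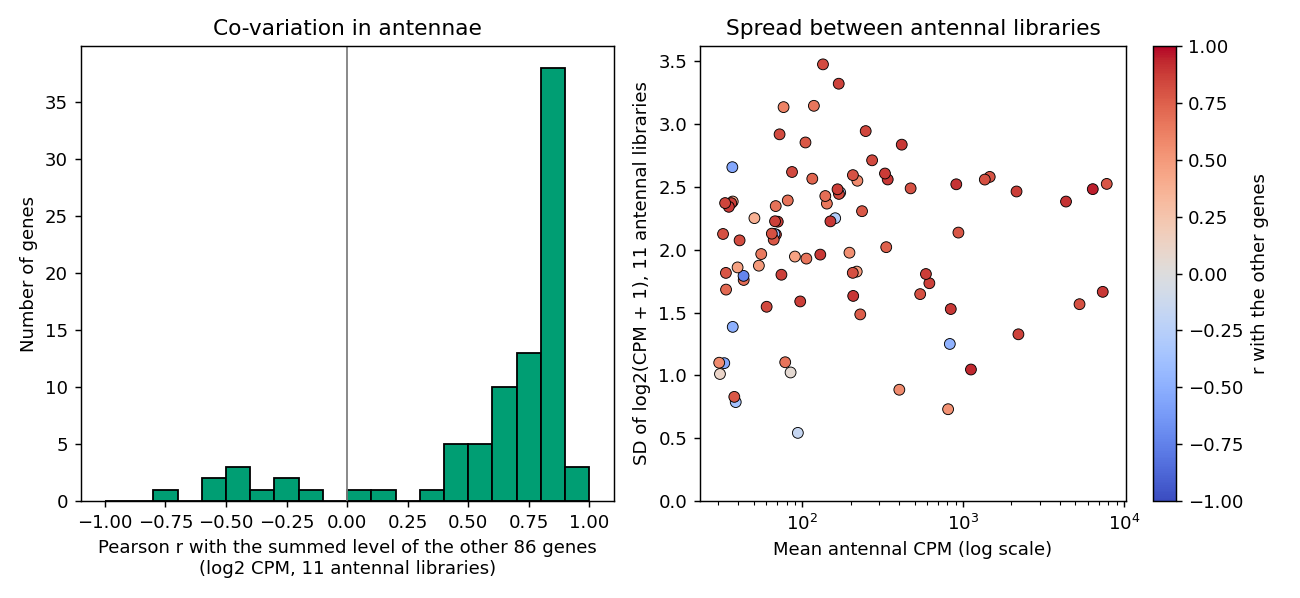
Left, the number of genes by their Pearson r with the summed level of the other 86 genes over 11 antennal libraries; right, the SD of log2(CPM + 1) over those libraries against mean antennal CPM (log axis), coloured by the same r. Of the 87 genes 69 have an r over 0.5, and 10 lie below 0.

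Among the 87 genes, 12 formed 6 pairs with consecutive identifiers, while the 15130 gene models as a whole formed 14246 such pairs. The antennal levels of a pair had an r of 0.619 to 0.910 (median 0.809, n = 11 libraries). Over all pairs of the 87 genes the median r was 0.562, and 18.0% were over 0.8. Whether consecutive pairs differ from the others was not tested. Whether the members of a pair share reads was not tested, and a consecutive identifier was not read as a genome position.

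Legs and proboscis were not compared with each other by the rule, and in this comparison more of the 87 genes were called lower than higher in legs. Many of the genes have few leg and proboscis reads and passed the filter on low counts through their antennal reads. In the fit of all 35 libraries, 10 of the 87 (11.5%) were higher in legs than in proboscis at an adjusted p below 0.05, against 12.6% of all 11804 genes tested. Lower in legs were 21 of the 87 (24.1%), against 12.3% of all genes. With leg and proboscis libraries alone, a choice made after seeing the data, 56 of the 87 passed the filter. Of these 8 were higher in legs, against 16.2% of the 11034 genes tested there, and 16 lower, against 17.2%, all 24 of them also called in the larger fit. Scaled by upper quartiles instead, 8 of the 87 were higher in legs and 22 lower, while over all genes the split changed to 1122 higher and 1702 lower, against 1491 higher and 1448 lower with the main scaling.

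In the fit of all 35 libraries the signs were balanced: 44 of the 87 were positive and 43 negative, with a median log2 fold change of 0.05 beside 0.01 over all genes. Under other settings that median ran between −0.28 (leg and proboscis libraries alone, 56 genes) and 0.13 (without female 27). By mean CPM, 52 genes were higher in proboscis and 35 in legs. An unadjusted p below 0.05 was found for 35 of the 87 genes (40.2%) and for 36.8% of all genes. The 10 higher in legs had mean leg levels of 0.333 to 9.74 CPM. The 21 lower in legs had mean proboscis levels of 0.277 to 83.9 CPM, over 5 CPM in 7 of them. With limma voom only 3 were called higher and 6 lower, and without female 1 the counts were 6 and 18.

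DPOGS202622 was lower in legs in all 12 animals. Legs had 0.198 CPM in the lowest library, a median of 6.64 and 19.1 in the highest, and proboscis had 6.19, 56.7 and 185 CPM. The fitted log2 fold change was −3.34 ± 0.56 (SE, adjusted p = 4.54e-05, edgeR). The groups overlapped, although each animal's own leg level was below its proboscis level. In antennae the same gene averaged 5297 ± 4252 CPM (SD, n = 11), and it was the gene with the most reads of the 87 in 5 of 12 proboscis libraries.

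DPOGS208419 was also lower in legs in all 12 animals, at 0, 0.518 and 2.78 CPM (lowest, median and highest) in legs and 0.664, 13.2 and 178 CPM in proboscis. Its fitted log2 fold change was −5.22 ± 0.82 (SE, adjusted p = 1.96e-05, edgeR). Its antennal levels lay between 53.9 and 2388 CPM with a median of 286, so its lowest antennal library was below its highest proboscis library.

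DPOGS203651 was higher in legs in 11 of 12 animals. Legs had 0.360 CPM in the lowest library, a median of 1.36 and 6.52 in the highest, while proboscis had a median of 0 and at most 1.46 CPM. The fitted log2 fold change was 3.62 ± 0.78 (SE, adjusted p = 0.000876, edgeR), on 1020 leg counts and 76 proboscis counts. DPOGS215108 was higher in legs in 11 of 12 animals as well, with a leg median of 0.4997 CPM and a proboscis median of 0. Its fitted log2 fold change of 4.04 ± 1.08 (SE, adjusted p = 0.00637, edgeR) missed the threshold with limma voom (adjusted p = 0.0767). Both genes had antennal means, 67.3 ± 79.8 and 36.3 ± 28.95 CPM (SD, n = 11), far over their leg means, as the rule required. Both had 0 CPM in their lowest antennal library, below their highest leg libraries at 6.52 and 6.21 CPM, so antennae and legs overlapped.

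**Figure D5:**
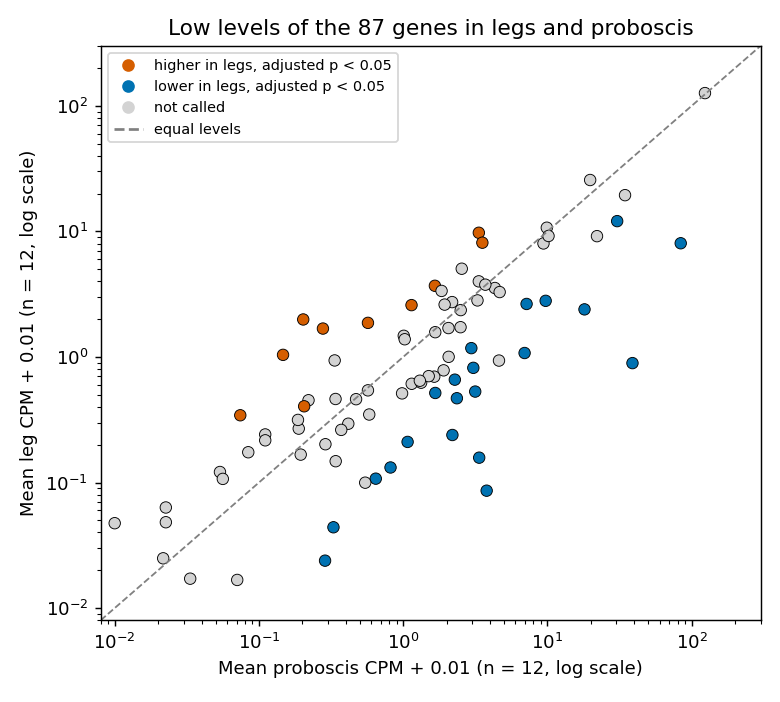
Mean leg CPM against mean proboscis CPM of the 87 genes (each plus 0.01, log axes, n = 12 libraries each); filled colours mark the 10 genes called higher and the 21 called lower in legs, and the dashed line marks equal levels. Genes called lower in legs reach higher levels (proboscis means up to 83.9 CPM) than genes called higher in legs (leg means up to 9.74 CPM).

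Between the sexes no antennal difference was called in these genes. The share of counts taken by the 87 genes was 6.40% ± 4.47 in female antennae (SD, n = 6) and 4.27% ± 3.19 in male antennae (SD, n = 5), which overlapped. The test called 0 of the 87 genes and 0% of all 10749 genes (edgeR). At an unadjusted p below 0.05 there were 3 of the 87 (3.45%) and 274 of all genes (2.55%), and DESeq2 called 12 genes in all and 0 of the 87. The fitted log2 fold change of female over male was positive in 57 genes and negative in 30, with a median of 0.44 beside 0.04 over all genes. Most of the 87 varied together over the same libraries, so these numbers of genes do not count separate observations. Of the 87 genes, those with the smallest p in each direction follow with their values, none of which passed.

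DPOGS201795 had 11.3, 86.4 and 327 CPM (lowest, median and highest) in 6 female antennal libraries, and 6.14, 12.6, 4.93, 159 and 0 CPM in antennae of males 12, 13, 15, 16 and 20. Its log2 fold change was 2.44 ± 1.03 (SE, adjusted p = 0.9997, edgeR). DPOGS214686 had 15.9, 145 and 321 CPM in females, and 3.78, 44.0, 28.7, 138 and 16.8 CPM in the same 5 males, and the fitted female over male value was 1.79 ± 0.83 on the log2 scale (SE, adjusted p = 0.9997, edgeR). Male 13 and male 16 lay within the range of the females in both genes.

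DPOGS210551 had 11.0, 18.4 and 114 CPM in females, and 197, 69.2, 4.40, 136 and 1158 CPM in males 12, 13, 15, 16 and 20. Its log2 fold change was −3.30 ± 0.96 (SE, unadjusted p = 0.00421, adjusted p = 0.9997, edgeR), and −1.90 without male 20. DPOGS200048 had 4.04, 16.2 and 148 CPM in females, and 458, 527, 18.1, 45.4 and 597 CPM in the males, with −3.20 ± 1.00 (SE, adjusted p = 0.9997, edgeR). The sexes overlapped in both genes: male 13 lay within the female range for DPOGS210551, and males 15 and 16 did for DPOGS200048.

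Batches were compared in the same fit of 11 antennal libraries. The summed share was 7.33% ± 3.88 in batch 2 (SD, n = 5) and 3.86% ± 3.46 in batch 1 (SD, n = 6). The fitted log2 fold change of batch 2 over batch 1 was positive in 78 of the 87 genes and negative in 9, with a median of 1.11 beside 0.03 over all genes. Most of the 87 varied together over these libraries (median r with the others 0.787). Neither the signs nor the unadjusted p-values below are therefore separate observations. No gene of the 87 passed the test, which called 0.0093% of all genes. Unadjusted p-values below 0.05 were found for 19 of the 87 (21.8%) and for 7.32% of all genes, and DESeq2 called 1 of the 87 and 96 genes in all.

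DPOGS210514 was that gene. It had 1504, 1401, 145, 529 and 1572 CPM in antennae of batch 2 (females 1, 3 and 11 and males 12 and 16), against 54.3, 113 and 600 CPM (lowest, median and highest) in batch 1. Its log2 fold change was 2.51 ± 0.72 (SE, adjusted p = 0.455 with edgeR, 0.0277 with DESeq2). DPOGS207886 had 399, 601, 59.5, 434 and 373 CPM in the same batch 2 libraries, against 33.2, 89.9 and 213 CPM in batch 1, and the fitted batch 2 over batch 1 value was 2.07 ± 0.62 on the log2 scale (SE, adjusted p = 0.503, edgeR). Female 11 lay within the range of batch 1 in both genes, and male 12 did in DPOGS210514, so the batches overlapped.

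In the other direction DPOGS210551 had a batch log2 fold change of −1.42 ± 0.93 (SE, adjusted p = 0.799, edgeR) and DPOGS200048 one of −0.74 ± 0.97 (SE, adjusted p = 0.927, edgeR). Both are the genes given above for the sexes, and their batch values changed sign under other settings.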

How the data were processed

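Raw read counts per gene model, as deposited by the authors with no scaling seen in the values, were analysed for 35 of 36 labelled libraries. Per the labels' protocols, each library used 100 ng of RNA and a stranded TruSeq mRNA kit. Per the submitters' processing notes, the tools named are HISAT2 2.0.5, featureCounts 1.5.2, limma and FastQC 0.11.5. For build, annotation, strand setting and multi-mapping the sources used here give nothing, so genes with near-identical copies or antisense partners are uncertain.

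Levels are CPM on raw column totals. Tests used edgeR 4.0.16 in R 4.3.3 (filterByExpr, TMM, quasi-likelihood) with Benjamini-Hochberg adjustment over all genes tested: sex-by-tissue groups and batch for tissues, sex and batch within antennae. A call is an adjusted p below 0.05. DESeq2 1.42.0 and limma 3.58.1 were alternatives. Scripts were tested on simulated data. Depth limits precision. Within antennae each animal gave 1 library, so p-values there measure spread between animals. The main tissue fits had no term for the animal and treated libraries of the same animal as independent, so their p-values measure spread between libraries.

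Members and lists were chosen with earlier results of these data known. Named were the 2 highest antennal means and, per comparison, the 2 smallest p-values in each direction (for legs against proboscis with at least 10 counts there); others are marked. Libraries are paired by animal in the labels; deviations of an animal's libraries correlated with a median r of 0.0668 (antennae and legs), 0.288 (antennae and proboscis) and 0.525 (legs and proboscis).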

Additional observations from a re-analysis of the deposited data

Results flagged for a closer look

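For the 12 genes named by rule, and for the share of counts taken by the 87 genes, each group of sex and tissue was searched for a single library far from the others. Such a library was found 19 times in 78 groups. Chance flags about 1 in 20 groups of normally distributed values; the rate for skewed values near 0 CPM was not measured.

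In male legs, male 12 had 5.04 CPM of DPOGS208400, with the next library at 1.58, 4.59 CPM of DPOGS210500 (next 1.40) and 2.20 CPM of DPOGS210514 (next 0.421). In male proboscis, male 2 had 2.99 CPM of DPOGS208400 (next 1.04), 1.46 CPM of DPOGS203651 (next 0.260), 101 CPM of DPOGS208419 (next 30.01) and 29.1 CPM of DPOGS214686 (next 4.45). In male antennae, male 16 had 159 CPM of DPOGS201795 (next 12.6) and male 20 had 1158 CPM of DPOGS210551 (next 197). Male 13 had 0.106 CPM of DPOGS215108 in proboscis, a single read, where the other 5 male libraries were at 0.

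In female antennae, female 18 had 114 CPM of DPOGS210551 (next 27.9) and female 11 had 182 CPM of DPOGS203651 (next 55.5). In female legs, female 25 had 4.23 CPM of DPOGS201795 (next 0.790) and 1.90 CPM of DPOGS210514 (next 0.204), and female 3 had 6.21 CPM of DPOGS215108 (next 0.790). In female proboscis, female 25 had 10.3 CPM of DPOGS201795 (next 0.747) and 0.421 CPM of DPOGS203651 (next 0.0810). Female 3 had 1.16 CPM of DPOGS215108 (next 0.210) and 8.80 CPM of DPOGS207886 (next 2.42) there.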

How the results depend on the processing

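Depth limits how closely low levels are known, with the fewest counts in antennae. Of 226 fold changes of named genes under alternatives, 218 kept their direction and side of the threshold, 5 lost the call, 1 gained it and 2 changed sign. Many of these come from the sex and batch comparisons, in which the main fit called no named gene. Of 211 counts of genes, 206 stayed within 1.5 times the main count and 5 did not. The 19 counts for antennae against legs and 19 for antennae against proboscis all stayed at 87, as the rule used those contrasts. Counts for the sexes and batches stayed at 0, apart from 1 with DESeq2. These totals are thus no measure of stability. The number of genes meeting the rule was 63 with TMM-scaled CPM (all among the 87), 154 at an 8-fold limit, 60 at 32-fold, and 85 to 92 when 1 animal was left out. With medians over libraries in place of means it was 80, of which only 67 were among the 87. For legs against proboscis, limma voom called 3 higher and 6 lower. Leaving out 1 animal gave 6 to 10 higher, the lowest without female 1, and 17 to 21 lower. With the animal as a block, the paired fit called 11 higher and 23 lower, and 30 of the 31 calls remained. For the sexes no alternative called a gene of the 87. For batches DESeq2 called 1. DPOGS210551 had a batch log2 fold change of 0.23 with limma voom, and DPOGS200048 of −1.81 to 0.17 when 1 animal was left out, positive without female 25; both were opposite in sign to the main value; the cause was not tested. In genes chosen in batch 1 and tested in batch 2, leaving out 1 tested animal gave 79 to 84 higher in antennae than in legs and 75 to 84 than in proboscis; the block gave 84 and 83. In genes chosen in batch 2 and tested in batch 1 the ranges were 87 to 97 and 86 to 97, and the block gave 97 and 99. The block changed no other count by over 1.5 times. Upper-quartile factors moved the median log2 fold change of all genes by more than 0.1, to 0.20 for antennae against legs and to −0.12 for legs against proboscis.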
